A study of Rattus norvegicus with 14 samples.

Results

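Testis was compared with ovary at embryonic day 16 (E16) of the rat on 4 of the 14 arrays of a series on fetal gonads, the 2 arrays titled as E16 testis and the 2 titled as E16 ovary. The remaining arrays were E14 testis, E14 ovary, E13 testis, E13 ovary and E13 testis kept in culture for 3 days, with 2 arrays each. Fresh E13 and E14 gonads served for comparison between ages, and the cultured testes entered only the estimate of the spread. Gonads were pooled in lots of 20 to 40, and the RNA of each pool was extracted with Trizol, labelled with biotin and read on 1 Affymetrix rat expression array, and the labels describe the 2 pools of a group as independent. They name no strain, genotype or treatment for the fresh gonads. The p-values therefore measure the spread between pools of whole gonads, in which more cells of a type and more RNA per cell cannot be told apart.

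At this age the rat testis has already formed cords, in which Sertoli cells surround the germ cells, and fetal Leydig cells have appeared between them. Sertoli cells secrete anti-Müllerian hormone, which removes the precursor of the female tract. Leydig cells import cholesterol and convert it to androgens through a chain of mitochondrial and microsomal enzymes, and they secrete insulin-like 3, which acts in descent of the testis. In the ovary, Wnt4 and R-spondin signal through beta-catenin and maintain follistatin, an antagonist of activin, before follicles form.

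Array medians at E16 were 69.2 and 65.8 intensity units in testis, against 63.9 and 59.6 in ovary. The 2 testis arrays correlated at r = 0.97 and the 2 ovary arrays at r = 0.953 across probe sets, which are groups of short probes for 1 transcript. A difference of at least 2-fold between replicates was seen for 335 probe sets (2.11%) in testis and for 794 (5.0%) in ovary. Each E16 ovary array stood apart in 1 respect. Xist, a non-coding RNA of the silenced X chromosome in females, read 3.3 and 1.5 in testis, against 152 and 12.8 in ovary, so that ovary replicate 2 lay near the testis arrays and far below ovary replicate 1. The 3′ actin control read 3.34 times its 5′ counterpart, a measure of RNA degradation, in ovary replicate 1 and between 1.61 and 1.64 times it in the other E16 arrays. By the endings of the chip labels, testis replicate 2 and ovary replicate 2 shared 1 chip batch, while the remaining E16 arrays came from 2 further batches of 1 sex each at this age.

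Testis and ovary differed at E16 in 276 of 15866 tested probe sets (1.74%; limma, adjusted p under 0.05), 161 of them higher in testis (1.01%) and 115 lower (0.725%). At an unadjusted p under 0.05 there were 2062. Those that passed stood for 226 genes with an unambiguous symbol, 127 higher and 99 lower, and 27 of the probe sets had no symbol. The differences, on the scale of log2(intensity + 16), ran from 6.51 higher to 3.94 lower in testis (-3.94), with a median size of 1.32 among the probe sets that passed and 0.22 among all. All 276 had testis arrays that did not overlap the ovary arrays, as did 41.8% of all tested probe sets.

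The 2 directions differed in how far the lower sex was from background. Of the 161 probe sets higher in testis, 93 averaged under 50 units in ovary, with a median over the 161 of 155 in testis and 38.4 in ovary. Of the 115 lower in testis, 44 averaged under 50 units in testis, with a median over the 115 of 74.2 in testis and 216 in ovary. At least 2 on the log2 scale separated the sexes in 27 of the higher and 16 of the lower probe sets.

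**Figure D1:**
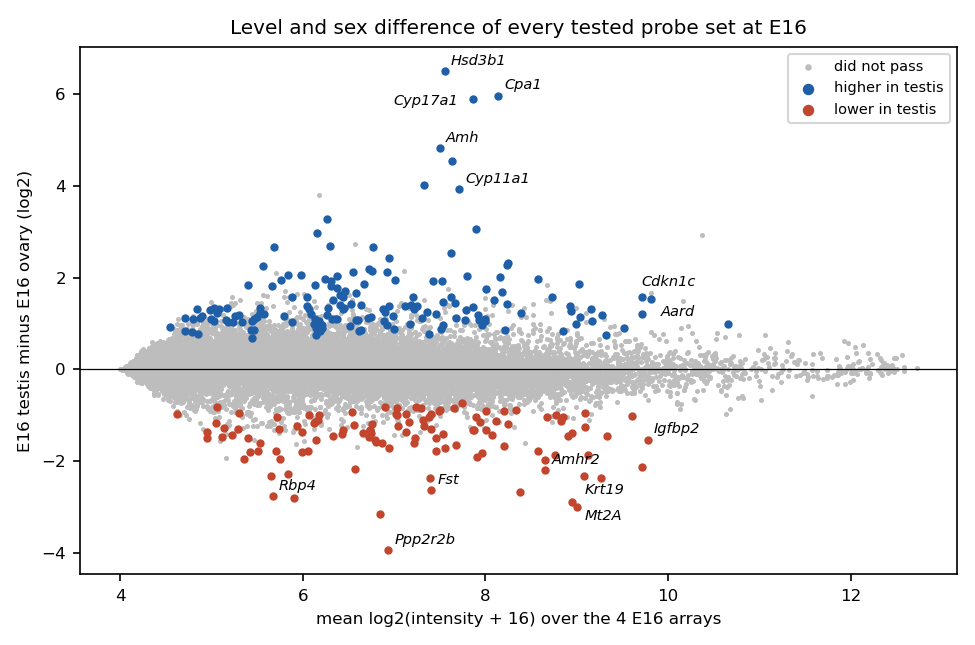
Sex difference at E16 (testis minus ovary, log2, vertical axis) against the mean log2(intensity + 16) over the 4 E16 arrays (horizontal axis), 1 point per tested probe set, with those that passed in colour and a few genes named. The 161 probe sets higher in testis reach 6.51 and the 115 lower reach -3.94, and most of the probe sets with the largest differences lie at low to middle mean intensity.

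The number of calls depended on single arrays. It was 103 without E16 testis replicate 1, 62 without testis replicate 2, 142 without ovary replicate 1, 161 without ovary replicate 2 and 176 without either E13 ovary array. Without the 4 arrays of the series whose Xist reading went against their label (E16 ovary replicate 2 and replicate 1 of fresh E13 testis, of cultured E13 testis and of E14 testis) 14 probe sets passed, and 11 passed in a fit on the 4 E16 arrays alone. Among 90 genes that passed and are named below, 31 kept their call when each of the 14 arrays was left out in turn and 59 lost it at least once. That 0 changed direction is required by the absence of overlap, because arrays of other groups enter only the spread. The 10 that passed in all 24 settings tried were Hsd3b1, Cpa1, Amh, Tsx, Cyp11a1 and Nppc, higher in testis, and Mt2A, Tle6, Postn and Amhr2, lower.

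The steroid-producing pathway held several of the largest differences. Of 20 measured genes of steroid synthesis and Leydig cells, 9 were higher in testis and 0 lower, against 1.09% higher and 0.893% lower (1.98% in all) among the 10411 named genes. The median difference of the 20 was 1.00, against 0.02 over all named genes. Their summed intensity was 6492 and 11208 in testis, against 1419 and 1392 in ovary. Without the 4 arrays with discordant Xist, 3 of the 20 passed (Hsd3b1, Cyp17a1 and Cyp11a1).

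Star, which carries cholesterol into the mitochondrion, read 183 and 365 in testis, against 36.1 and 19.3 in ovary (log2 difference 2.68 ± 0.35 SE, adjusted p = 0.00371). Its second probe set, which is dimmer, read 173.5 and 288 in testis, against 13.7 and 4.5 in ovary (3.28, adjusted p = 0.000825). Scarb1, the receptor that takes up cholesterol from high-density lipoprotein, read 164 and 341.5 in testis, against 60.2 and 39.7 in ovary (log2 difference 1.96 ± 0.35 SE, adjusted p = 0.0164). Its dimmer probe set did not pass (1.44, adjusted p = 0.0604). In both genes the testis arrays were separate from the ovary arrays, with testis replicate 2 above replicate 1. Cyp11a1, the mitochondrial enzyme that makes pregnenolone from cholesterol, read 615 and 1051 in testis, against 37 and 38 in ovary (log2 difference 3.94 ± 0.22 SE, adjusted p = 2.56e-05). Its electron carrier Fdx1, ferredoxin, read 766 and 1240.1 in testis, against 228 and 288 in ovary (log2 difference 1.86 ± 0.23 SE, adjusted p = 0.00299).

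Among the enzymes that follow, Hsd3b1 and Cyp17a1 had larger differences than Cyp11a1, and Hsd17b3 a smaller one. Hsd3b1, a 3-beta-hydroxysteroid dehydrogenase, read 1432 and 2202.5 in testis, against 4.9 and 2.6 in ovary (log2 difference 6.51 ± 0.42 SE, adjusted p = 2.9e-05), the largest difference of any probe set that passed. Copies of the Hsd3b family are near-identical in sequence and their probes may not tell them apart. Cyp17a1, which makes androgens from progestagens, read 1232 and 2566 in testis, against 31.1 and 3.2 in ovary (log2 difference 5.90 ± 0.49 SE, adjusted p = 0.000207). Both genes were near background in each ovary array. Hsd17b3, which makes testosterone in the testis, read 158 and 146 in testis, against 23.1 and 26.5 in ovary (log2 difference 2.04 ± 0.33 SE, adjusted p = 0.0105).

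Insl3, the peptide hormone of Leydig cells, read 540.0 and 1659 in testis, against 45.2 and 11.6 in ovary (log2 difference 4.55 ± 0.57 SE, adjusted p = 0.00312), and its 2 testis arrays lay further apart than those of most genes of this group. The receptor for luteinizing hormone, Lhcgr, read 104 and 181 in testis, against 23.1 and 35.4 in ovary (log2 difference 1.78 ± 0.29 SE, adjusted p = 0.0117). Its dimmer probe set did not pass (0.77, adjusted p = 0.425). Pdgfra, a growth factor receptor of Leydig cell precursors in mouse, read 452 and 513 in testis, against 259 and 168 in ovary and did not pass (log2 difference 1.15 ± 0.32 SE, adjusted p = 0.125). Of these genes, Hsd3b1, Cyp17a1, Insl3, Cyp11a1, Star and Fdx1 kept their call without each of the 14 arrays. Hsd17b3 lost it without either testis array or ovary replicate 1, Lhcgr without testis replicate 2 or ovary replicate 1, and Scarb1 without testis replicate 2 or ovary replicate 2.

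Whether adrenal tissue moved with these genes could be read from its own markers. All 8 measured genes of adrenal cortex and chromaffin cells stayed under 50 units in every E16 array, and 0 passed. Cyp11b1 and Cyp21a1, which make adrenal corticoids, read 11.9 and 15.3 in testis, against 15.3 and 6.1 in ovary for Cyp11b1 and 10.1 and 7.6 in testis, against 8.5 and 6.8 in ovary for Cyp21a1. The summed intensity of the 8 was 121 and 144 in testis, against 68 and 112 in ovary. Of 20 measured genes of cholesterol synthesis and uptake, Scarb1 alone passed, and the median difference of the list was 0.10.

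**Figure D2:**
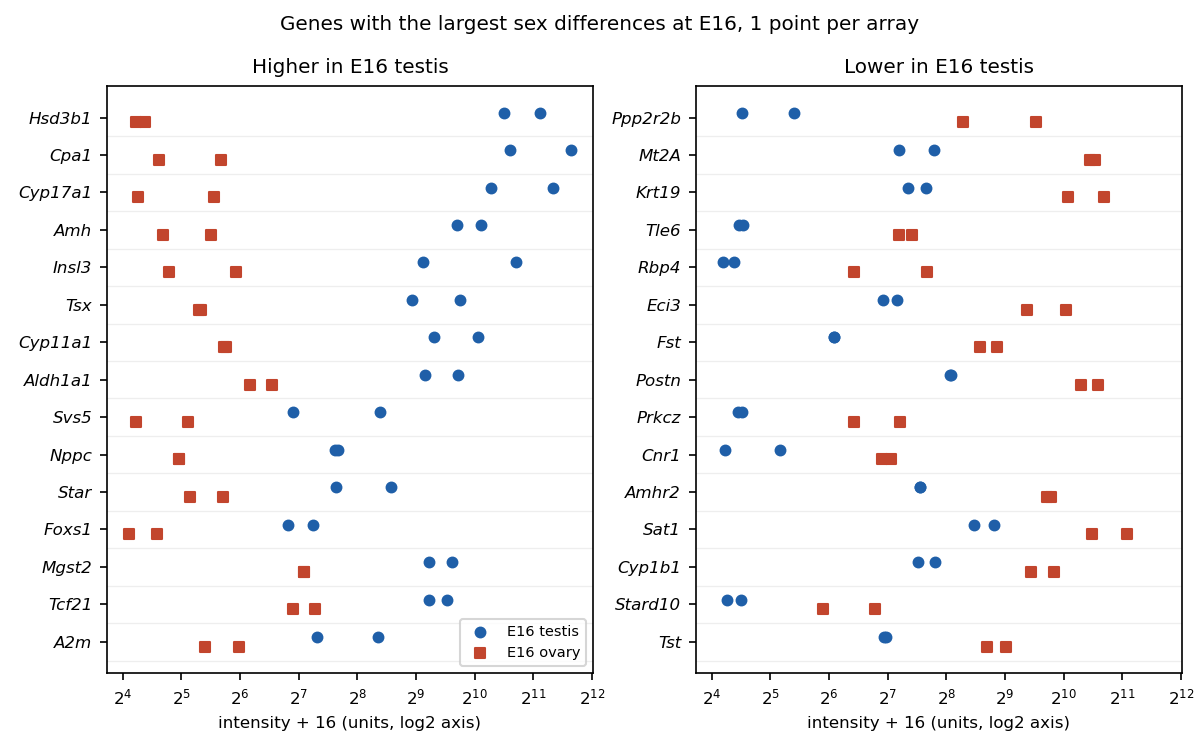
Intensity + 16 (log2 axis) in each E16 testis array (circles) and E16 ovary array (squares) for the 15 genes with the largest difference in each direction by their brightest probe set, among genes whose probe sets ranked among the 30 largest. For all 30 genes the testis and ovary arrays do not overlap; Hsd3b1 (6.51), Cpa1 (5.97) and Cyp17a1 (5.90) have the largest mean differences on the left, and Ppp2r2b (-3.94) on the right.

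Promoters are shown for members of this group because 9 of its genes were higher in testis together and a motif stood in most of the windows available. That motif was 1 of 4 searched and is shown for its matches, so its share in this group describes the choice. The 300 bases around the annotated start (250 before and 50 after, RefSeq, GRCr8) were searched on both strands for AGGTCA, a half-site bound by nuclear receptors. Of the 9 genes of the group that passed, 6 had a window in the table, and AGGTCA stood in 5 of them (Cyp11a1, Fdx1, Hsd17b3, Insl3 and Lhcgr) but not in that of Hsd3b1. Over all 33469 windows, which were not limited to genes on the array, the share was 16.2%. Counted by gene, it was 18 of 97 (18.6%) among all genes higher in testis with a window and 12 of 78 (15.4%) among those lower. The windows of Cyp11a1 (chr8:67318415-67318714, plus strand) and Insl3 (chr16:18432939-18433238, plus strand) follow 5′ to 3′, with AGGTCA or its reverse complement in capitals; a match is a string of letters and no binding was measured.
Cyp11a1: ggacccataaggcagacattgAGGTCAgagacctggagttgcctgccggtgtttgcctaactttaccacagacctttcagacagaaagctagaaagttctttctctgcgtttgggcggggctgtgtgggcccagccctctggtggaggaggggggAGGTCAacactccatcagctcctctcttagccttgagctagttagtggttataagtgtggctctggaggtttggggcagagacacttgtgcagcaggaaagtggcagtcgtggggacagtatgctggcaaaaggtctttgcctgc
Insl3: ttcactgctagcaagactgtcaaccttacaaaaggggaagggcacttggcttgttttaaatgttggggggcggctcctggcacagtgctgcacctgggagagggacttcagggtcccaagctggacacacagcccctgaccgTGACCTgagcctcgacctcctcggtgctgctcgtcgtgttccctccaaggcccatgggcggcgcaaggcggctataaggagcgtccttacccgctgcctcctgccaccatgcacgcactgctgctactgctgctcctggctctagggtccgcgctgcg
The window of Cyp11a1 held 2 matches in the printed direction, beginning 229 and 95 bases before the start, and that of Insl3 held 1 on the opposite strand, beginning 108 bases before it.

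Genes of Sertoli cells formed the second group higher in testis. Of 25 measured, 9 were higher and 1 lower, with a median difference of 0.46, against 1.09% higher and 0.893% lower among all named genes. Their summed intensity was 8032 and 8542 in testis, against 4186 and 5176 in ovary. Without ovary replicate 1, 5 of the 25 passed, and 2 without the 4 arrays with discordant Xist (Amh and Tsx).

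Amh, anti-Müllerian hormone, read 1093 and 814 in testis, against 29.2 and 9.6 in ovary (log2 difference 4.82 ± 0.30 SE, adjusted p = 2.9e-05). Tsx, an X-linked gene of Sertoli cells, read 471.5 and 839.8 in testis, against 24.2 and 23.2 in ovary (log2 difference 4.02 ± 0.34 SE, adjusted p = 0.000257). Aldh1a1, a retinaldehyde dehydrogenase, read 550.2 and 824 in testis, against 77.7 and 56.1 in ovary (log2 difference 3.07 ± 0.34 SE, adjusted p = 0.00161). Each of these genes was several times higher in both testis arrays than in either ovary array. Inha, the alpha subunit of inhibin, read 285 and 414.5 in testis, against 67 and 91.3 in ovary (log2 difference 1.93 ± 0.23 SE, adjusted p = 0.00253). Aard, a gene of fetal Sertoli cells in mouse, read 1465 and 1563 in testis, against 481.5 and 537 in ovary (log2 difference 1.54 ± 0.26 SE, adjusted p = 0.0143), so that it was well above background in ovary too.

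The other members that passed differed by less than 2 on the log2 scale. Cst8, a cystatin, read 145.5 and 218 in testis, against 32.3 and 43.4 in ovary (1.86), and Tesc, a calcium-binding protein, read 84.7 and 113 in testis, against 19.2 and 25.3 in ovary (1.58). Vnn1, a pantetheinase, read 166 and 172 in testis, against 42.4 and 87 in ovary (1.25). Krt18, a keratin of simple epithelia, read 128 and 109 in testis, against 55.9 and 58.8 in ovary (0.87). Ptgds, the prostaglandin D synthase that is a Sertoli cell gene in mouse, went the other way, with 26.2 and 35.9 in testis, against 67.4 and 115 in ovary (log2 difference -1.16 ± 0.25 SE, adjusted p = 0.0467). Amh, Tsx, Aldh1a1 and Inha kept their call without each of the 14 arrays. Tesc and Cst8 lost it without testis replicate 2 or ovary replicate 1, Aard without any 1 of the 4 E16 arrays, and Vnn1, Krt18 and Ptgds without any of several arrays, E16 or not.

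The windows of Amh (chr7:9559818-9560117, minus strand) and Inha (chr9:84442859-84443158, plus strand), the hormone genes of this group, are shown with the same motif in capitals. Of the 9 Sertoli cell genes higher in testis, 7 had a window, and AGGTCA stood in 4 (Amh, Cst8, Inha and Krt18). It stood in 16.2% of all windows and, counted by gene, in 18.6% of all genes higher in testis with a window. The motif and the list were chosen with these data known, so this share too describes the choice.
Amh: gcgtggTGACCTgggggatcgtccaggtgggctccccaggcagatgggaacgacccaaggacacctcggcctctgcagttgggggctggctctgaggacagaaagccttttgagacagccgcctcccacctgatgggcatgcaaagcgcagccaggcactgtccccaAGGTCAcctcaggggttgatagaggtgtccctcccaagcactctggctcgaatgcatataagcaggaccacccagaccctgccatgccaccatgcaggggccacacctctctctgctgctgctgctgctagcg
Inha: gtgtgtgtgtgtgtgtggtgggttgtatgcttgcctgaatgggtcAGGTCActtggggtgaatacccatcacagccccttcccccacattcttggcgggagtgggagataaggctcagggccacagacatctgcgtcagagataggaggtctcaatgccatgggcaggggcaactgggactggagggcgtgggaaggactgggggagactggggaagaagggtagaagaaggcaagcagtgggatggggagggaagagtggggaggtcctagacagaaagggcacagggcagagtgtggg
In Amh the 2 matches began 83 bases before the start in the printed direction and 244 bases before it on the opposite strand. In Inha the match began 205 bases before the start.

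Contractile genes of smooth muscle and peritubular cells, the cells that wrap the cords, made up the third group. Of 17 measured, 8 were higher in testis and 0 lower, against 1.09% higher and 0.893% lower among all named genes. The median difference of the 17 was 1.01. Their summed intensity was 4496 and 4956 in testis, against 2259 and 2293 in ovary. Acta2, smooth muscle actin, read 470.0 and 542.5 in testis, against 115 and 182.5 in ovary (log2 difference 1.69 ± 0.28 SE, adjusted p = 0.0121). Tagln, transgelin, read 93.4 and 202 in testis, against 37.2 and 15.4 in ovary (log2 difference 1.92 ± 0.42 SE, adjusted p = 0.0461). Csrp2, a LIM domain protein of smooth muscle, read 441 and 469 in testis, against 112 and 137 in ovary (log2 difference 1.75 ± 0.26 SE, adjusted p = 0.00639). The testis and ovary arrays of each did not overlap, although Tagln varied more than 2-fold between replicates in both sexes.

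The remaining contractile genes that passed were Tpm2 (1.32) and Tpm1 (1.05), the tropomyosins, Pln (1.09), which restrains the calcium pump, Csrp1 (1.05) and Myl9 (0.99), a myosin light chain. Of the 6 probe sets of Tpm1, 2 passed, and the dimmer probe set of Pln did not pass (0.79, adjusted p = 0.245). None of these 8 genes kept its call without each of the 14 arrays, and Csrp2 lost it only without testis replicate 2. Without ovary replicate 1, 4 of the 17 passed, and 0 passed without the 4 arrays with discordant Xist. No AGGTCA and no CArG box, the motif of serum response factor, stood in the 6 of 8 windows available. The CArG box stood in 1.64% of all windows, so its absence from 6 says nothing about these genes. Myh6, a cardiac myosin heavy chain whose probes may also read the similar Myh7, read 121 and 148 in testis, against 25.7 and 19.2 in ovary (log2 difference 1.97 ± 0.28 SE, adjusted p = 0.00616), a call that was lost without testis replicate 2; its second probe set was near background in all E16 arrays (0.02).

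Signalling genes were split between the sexes. For these and all later lists, the share among all named genes was 1.09% higher and 0.893% lower (1.98% in all). A single call in a list was not read as a result about that list. In the Notch pathway the ligand Jag1 read 126 and 109.5 in testis, against 26.2 and 16.5 in ovary (log2 difference 1.85 ± 0.25 SE, adjusted p = 0.00435). The transcriptional target Hes1 read 191 and 151 in testis, against 53.5 and 63.5 in ovary (log2 difference 1.32 ± 0.20 SE, adjusted p = 0.00676). The receptor Notch1 read 79.9 and 75.1 in testis, against 63.9 and 52.9 in ovary (0.33, adjusted p = 0.594). Of 11 measured Notch genes, 2 were higher in testis and 0 lower (median 0.37), with 1 call without ovary replicate 1 and 0 when the 4 arrays with discordant Xist were left out. Jag1 kept its call without each of the 14 arrays, and Hes1 lost it without testis replicate 1 or ovary replicate 1.

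In Wnt signalling, Wnt5a was higher in testis and Tle6 and Lgr5 were lower, out of 20 measured genes with a median of -0.27. Wnt5a, a ligand that acts mostly without beta-catenin, read 144 and 123.5 in testis, against 24.8 and 27.4 in ovary (log2 difference 1.83 ± 0.33 SE, adjusted p = 0.018). Wnt4, the ovary ligand, read 77 and 49.4 in testis, against 411 and 87.5 in ovary and did not pass (log2 difference -1.43 ± 0.66 SE, adjusted p = 0.389); its 2 ovary arrays differed more than 4-fold. Lgr5, an R-spondin receptor, read 22.9 and 24.8 in testis, against 86.9 and 85.4 in ovary (log2 difference -1.36 ± 0.26 SE, adjusted p = 0.0238). Tle6, of the Groucho family of co-repressors, read 6 and 7.1 in testis, against 130.2 and 155 in ovary (log2 difference -2.81 ± 0.36 SE, adjusted p = 0.00314). Lef1, a transcription factor of the pathway, read 118 and 35.6 in testis, against 151 and 109 in ovary (-0.80, adjusted p = 0.653), and Ctnnb1, beta-catenin, read 2936 and 2617.5 in testis, against 1710.1 and 1548 in ovary (0.76, adjusted p = 0.237). Tle6 kept its call without each array, whereas Wnt5a and Lgr5 lost theirs without any 1 of the 4 E16 arrays, and without the 4 arrays with discordant Xist 1 of the 20 passed.

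In the TGF-beta family, 1 of 31 measured genes was higher in testis (Inha, above) and 3 were lower, with a median of 0.05. Amhr2, the receptor for anti-Müllerian hormone, read 173 and 171 in testis, against 871 and 823.5 in ovary (log2 difference -2.20 ± 0.19 SE, adjusted p = 0.000264), the opposite direction to its ligand. Fst, follistatin, read 51.7 and 52.1 in testis, against 449 and 366 in ovary (log2 difference -2.63 ± 0.39 SE, adjusted p = 0.00672), and its dimmer probe set read 24.1 and 21 in testis, against 652.5 and 159.5 in ovary (-3.15, adjusted p = 0.0394). Fstl3, a second antagonist of activin, read 5.4 and 4.3 in testis, against 43.1 and 40.7 in ovary (log2 difference -1.47 ± 0.26 SE, adjusted p = 0.0156). Amhr2 kept its call without each of the 14 arrays, Fst lost it without either testis array, and Fstl3 without any 1 of the 4 E16 arrays. Without the 4 arrays with discordant Xist, 2 of the 31 passed.

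Growth factor receptors and ligands moved less. Pdgfrb, a receptor of perivascular and peritubular cells, read 102 and 96.6 in testis, against 45 and 26.6 in ovary (log2 difference 1.18 ± 0.23 SE, adjusted p = 0.0294) and was the 1 call among 17 genes of FGF, PDGF and VEGF signalling. Dusp6, a phosphatase induced by FGF signals, did not pass by its brightest probe set (1.15, adjusted p = 0.354), while a dimmer one read 250 and 175 in testis, against 41.1 and 26.5 in ovary (2.20, adjusted p = 0.00802). Cxcl12, the chemokine that guides germ cells, likewise missed the threshold by its brightest probe set (1.27, adjusted p = 0.0822) and passed by 2 dimmer ones (1.11 and 2.26). Its receptor Cxcr4 was lower in testis by all 3 of its probe sets; the brightest read 90.2 and 53.9 in testis, against 185 and 188 in ovary (log2 difference -1.23 ± 0.21 SE, adjusted p = 0.0148). Igfbp2, which binds insulin-like growth factors, read 546 and 458 in testis, against 1339 and 1617 in ovary (log2 difference -1.53 ± 0.26 SE, adjusted p = 0.0147). The other call in that list of 14 genes was Insl3, the Leydig cell hormone above rather than an insulin-like growth factor. Ngfr, the low-affinity neurotrophin receptor, read 69.2 and 68.2 in testis, against 24.3 and 3.4 in ovary and missed the threshold (log2 difference 1.60 ± 0.37 SE, adjusted p = 0.0561). Pdgfrb, Cxcr4 and Igfbp2 each lost their call without at least 2 of the E16 arrays.

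Further genes had large differences outside these groups. Cpa1, carboxypeptidase A1, known as a digestive enzyme of the pancreas, read 1532 and 3182 in testis, against 35.3 and 8.5 in ovary (log2 difference 5.97 ± 0.39 SE, adjusted p = 2.9e-05). Svs5, a secretory protein of the seminal vesicle, read 103 and 318 in testis, against 2.6 and 18.4 in ovary (log2 difference 2.98 ± 0.48 SE, adjusted p = 0.0107). Its call was lost without testis replicate 2 or ovary replicate 1, and with an offset of 1 in place of 16. Nppc, the precursor of C-type natriuretic peptide, read 181 and 188 in testis, against 15 and 15.2 in ovary (log2 difference 2.69 ± 0.20 SE, adjusted p = 9.79e-05) with little spread in either sex. With Cst8 and the plasminogen activator Plat (0.88), Cpa1 and Svs5 were the 4 higher calls among 28 peptidases and inhibitors, of which 2 passed without ovary replicate 1 and 1 when the 4 arrays with discordant Xist were left out.

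The largest differences included 3 transcription factors. Foxs1, a forkhead factor, read 96.2 and 135.5 in testis, against 7.9 and 1.2 in ovary (log2 difference 2.68 ± 0.39 SE, adjusted p = 0.00639). Tcf21, a basic helix-loop-helix factor of mesenchyme, read 723 and 579 in testis, against 103.5 and 139 in ovary (log2 difference 2.28 ± 0.27 SE, adjusted p = 0.00267). Nr2f2, a nuclear receptor of interstitial cells, read 846 and 654 in testis, against 389.7 and 229.6 in ovary by its brightest probe set (log2 difference 1.27 ± 0.27 SE, adjusted p = 0.0406) and had a difference of 2.42 by its dimmer one. Cdkn1c, an imprinted inhibitor of the cell cycle, read 1623 and 1273 in testis, against 498 and 437 in ovary (log2 difference 1.59 ± 0.28 SE, adjusted p = 0.0163) and was the 1 call among 29 cell cycle genes, whose median was 0.19. Tcf21 and Nppc kept their call without each of the 14 arrays, as did Cpa1; Foxs1 lost it without testis replicate 2, Cdkn1c without any 1 of the 4 E16 arrays, and Nr2f2 without any 1 of 9 arrays.

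Detoxifying enzymes were divided. Mgst2, a microsomal glutathione transferase, read 578 and 767 in testis, against 120.0 and 119 in ovary (log2 difference 2.33 ± 0.29 SE, adjusted p = 0.00312) and Gsta1 read 443 and 709 in testis, against 105 and 151 in ovary (log2 difference 2.02 ± 0.37 SE, adjusted p = 0.0212). Cyp1b1, a cytochrome that oxidises estrogens and xenobiotics, read 208 and 168 in testis, against 678 and 897 in ovary (log2 difference -1.97 ± 0.28 SE, adjusted p = 0.00509). These were the 3 calls among 22 genes of this list, and 0 passed without the 4 arrays with discordant Xist. The call of Gsta1 was lost without any 1 of the 4 E16 arrays and that of Cyp1b1 without testis replicate 2.

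Of the remaining genes higher in testis that ranked among the 30 largest, A2m, a protease inhibitor (2.15), Mbl1, a lectin of innate immunity (2.06), Cd59b, an inhibitor of complement (1.92), and Enc1, an actin-binding protein (2.04), differed by about 2 on the log2 scale. The second probe set of Enc1 was near background and gave -0.42. Marcks, a substrate of protein kinase C, passed by 4 of its 6 probe sets (1.22 by the brightest), and Pea15 by both of its probe sets (0.84 and 1.95). Susd3 and Rnf207 differed by 1.43 and 1.20. Mbl1, Enc1 and Susd3 kept their call without each of the 14 arrays. A2m lost it without testis replicate 2 or ovary replicate 2, Cd59b without testis replicate 2, and Pea15 lost it by its brightest probe set without any 1 of them.

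Few of the genes lower in testis belonged to a cell type list. Of the 20 pre-granulosa and ovary genes listed, 11 were measured, while Foxl2, Rspo1, Irx3 and Irx5 were among those that were not. Of the 11, 2 were lower (Fst and Lgr5) and 0 higher, against 0.893% lower and 1.09% higher among all named genes. The median difference of the 11 was -0.80. Their summed intensity was 751 and 522 in testis, against 1759 and 1268 in ovary. With or without single arrays in doubt the count was small, 1 without ovary replicate 1 and also 1 when the 4 arrays with discordant Xist were left out. Ppp2r2b, a regulatory subunit of protein phosphatase 2A, had the largest difference, with 26.4 and 7 in testis, against 296 and 723 in ovary (log2 difference -3.94 ± 0.49 SE, adjusted p = 0.00312). The ovary arrays differed more than 2-fold between themselves but lay far above both testis arrays.

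Mt2A, a metallothionein that binds zinc and copper, read 131 and 206 in testis, against 1468 and 1392 in ovary (log2 difference -3.0 ± 0.24 SE, adjusted p = 0.000161). Near-identical metallothioneins may share its probes. Krt19, a keratin of the surface epithelium, read 147 and 185.5 in testis, against 1065 and 1644 in ovary (log2 difference -2.89 ± 0.35 SE, adjusted p = 0.00299), while the next keratin of that list, Krt7, read 69.2 and 44.5 in testis, against 84.8 and 117.5 in ovary (-0.69, adjusted p = 0.305). Krt19 was the 1 call among 8 surface epithelium genes, whose median was 0.12, and Mt2A the 1 call among 20 metallothionein and stress genes. Podxl, a sialomucin of podocytes and vessels, read 204 and 217 in testis, against 718 and 918.5 in ovary (log2 difference -1.87 ± 0.23 SE, adjusted p = 0.00299) by its brightest probe set, and its 2 dimmer probe sets gave 0.06 and 0.17. Mt2A, Krt19, Podxl and Ppp2r2b kept their call without each of the 14 arrays.

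The window of Mt2A (chr19:10838659-10838958, minus strand) is shown because metallothionein promoters are known for repeated metal response elements. These were searched as TGCACNC and TGCGCNC on both strands. They stood in 24.2% of all windows, which were not limited to genes on the array. Counted by gene, they stood in 33 of 78 (42.3%) genes lower in testis and in 32 of 97 (33%) of those higher. The window of Mt2A held 4, in capitals, which did not overlap.
Mt2A: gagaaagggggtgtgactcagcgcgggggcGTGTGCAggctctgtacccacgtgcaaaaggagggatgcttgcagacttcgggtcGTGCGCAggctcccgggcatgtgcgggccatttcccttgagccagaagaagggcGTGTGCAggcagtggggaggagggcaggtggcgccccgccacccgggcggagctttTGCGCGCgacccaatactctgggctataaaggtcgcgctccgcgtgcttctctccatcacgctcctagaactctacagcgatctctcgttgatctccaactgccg
The 4 began 55 bases before the start in the printed direction and 220, 165 and 111 bases before it on the opposite strand. The last motif searched, AGATAA, read by GATA factors, stood in 11.6% of all windows, 12 of 97 (12.4%) of genes higher in testis and 4 of 78 (5.13%) of those lower.

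Single genes lower in testis included carriers of retinol and lipids. Rbp4, the serum carrier of retinol, read 4.8 and 2.4 in testis, against 70.1 and 188 in ovary (log2 difference -2.76 ± 0.36 SE, adjusted p = 0.00355) and was near background in both testis arrays. Among 18 measured retinoid genes it was the 1 lower call, and the 2 higher were Aldh1a1 and Crabp2, a retinoic acid carrier (344 and 575 in testis, against 157 and 134 in ovary, 1.52). Aldh1a2, the main embryonic enzyme of retinoic acid synthesis, read 817 and 849 in testis, against 479 and 588 in ovary and did not pass (log2 difference 0.63 ± 0.23 SE, adjusted p = 0.257). The apolipoproteins Apoe and Apoc4 read 286 and 267 in testis, against 1510.3 and 719 in ovary for Apoe (log2 difference -1.86 ± 0.35 SE, adjusted p = 0.0228) and 6.9 and 10.6 in testis, against 67.5 and 69.5 in ovary for Apoc4 (log2 difference -1.78 ± 0.23 SE, adjusted p = 0.00314). Stard10, a lipid transfer protein, read 3.1 and 6.7 in testis, against 94.9 and 43.3 in ovary (-1.96).

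Several metabolic enzymes and transporters were lower too. Eci3 and Eci2, enoyl-CoA isomerases of similar sequence whose probes may not separate them, read 105 and 127 in testis, against 649.5 and 1035 in ovary for Eci3 (log2 difference -2.67 ± 0.30 SE, adjusted p = 0.00183) and 210.3 and 172 in testis, against 626 and 755.5 in ovary for Eci2 (log2 difference -1.77 ± 0.25 SE, adjusted p = 0.00572). Tst, which transfers sulphur to cyanide, read 109.7 and 107 in testis, against 401 and 504.5 in ovary (log2 difference -1.91 ± 0.24 SE, adjusted p = 0.00312). Them5, an acyl-CoA thioesterase (-1.65), Sat1, which acetylates polyamines (-2.13), the fructose transporter Slc2a5 (-1.60), the bicarbonate transporter Slc4a4 (-1.38) and the gluconeogenic enzyme Fbp2 (-1.30) passed as well. Of 23 glycolysis and hypoxia genes, 0 passed, while 3 had a positive difference and the median was -0.50; Ldha read 731 and 944 in testis, against 1203 and 1646 in ovary (-0.75, adjusted p = 0.192) and Pgk1 read 877 and 837 in testis, against 1324 and 1582 in ovary (-0.75, adjusted p = 0.159). Rbp4, Apoc4, Eci3, Tst and Slc4a4 kept their call without each of the 14 arrays; Apoe and Stard10 lost it without either testis array or ovary replicate 1, Eci2 and Sat1 without testis replicate 2 alone, and Crabp2 without any 1 of 8 arrays.

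Matrix genes were lower in testis in 3 cases and higher in 1 of 34 measured, with a median of 0.36. Postn, periostin, a secreted adhesion protein, read 255 and 253 in testis, against 1247 and 1518 in ovary (log2 difference -2.37 ± 0.25 SE, adjusted p = 0.00142). Eln, elastin, read 51.3 and 51 in testis, against 155 and 149 in ovary (log2 difference -1.33 ± 0.21 SE, adjusted p = 0.00866), and Lama1, a laminin chain of early basement membranes, read 94.7 and 99.9 in testis, against 203 and 167.5 in ovary (log2 difference -0.82 ± 0.18 SE, adjusted p = 0.0423). Ogn, osteoglycin, a small proteoglycan, was higher, with 183 and 309.6 in testis, against 71.3 and 113 in ovary (log2 difference 1.26 ± 0.26 SE, adjusted p = 0.0386). Its dimmer probe sets gave 1.38, which passed, and 1.5 and 0.62, which did not. Col1a1, the main fibrillar collagen, read 1780.3 and 1512 in testis, against 1759.7 and 397.5 in ovary and did not pass (log2 difference 0.95 ± 0.59 SE, adjusted p = 0.55). It was 1 of 5 genes of this list that differed at least 2-fold between the ovary arrays. Postn kept its call without each array, while Eln, Lama1 and Ogn did not; 2 of the 34 passed without ovary replicate 1, and 1 when the 4 arrays with discordant Xist were left out.

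Of 13 measured antigen presentation genes, 2 were lower in testis. Cd74, the invariant chain of class II molecules, read 47.7 and 54.4 in testis, against 190.2 and 183 in ovary (log2 difference -1.60 ± 0.30 SE, adjusted p = 0.0212), and Psmb9, an immunoproteasome subunit, read 18.7 and 17.3 in testis, against 61.5 and 73.8 in ovary (log2 difference -1.30 ± 0.21 SE, adjusted p = 0.011), and the median over the 13 was 0.22. Oas1a, an antiviral synthetase outside that list, read 52.4 and 51.4 in testis, against 136 and 311 in ovary (log2 difference -1.72 ± 0.37 SE, adjusted p = 0.0449). Of 19 macrophage and white blood cell genes, 0 passed, and Cd68 read 35.8 and 38.8 in testis, against 25 and 14.4 in ovary. Cd74 lost its call without any 1 of the 4 E16 arrays, Psmb9 and Oas1a without either testis array or ovary replicate 2 (Oas1a also without some arrays of other ages), and the antigen presentation list had 1 call without ovary replicate 1 and 0 when the 4 arrays with discordant Xist were left out.

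Other genes lower in testis act in signalling and gene control. Prkcz, an atypical protein kinase C, read 5.9 and 6.9 in testis, against 132 and 69.6 in ovary (log2 difference -2.33 ± 0.39 SE, adjusted p = 0.0135). Cnr1, a cannabinoid receptor, read 2.8 and 20 in testis, against 116.5 and 104 in ovary (log2 difference -2.28 ± 0.35 SE, adjusted p = 0.00802), but its dimmer probe set gave -0.09. Fgf13 (-1.83), Sema6d (-1.68), the kinase Dapk2 (-1.81), the deacetylase Hdac11 (-1.79) and the elongation factor Tcea3 (-1.77) were lower by their brightest probe sets. Commd7 did not pass by its brightest probe set (-0.46, adjusted p = 0.521) but did by the dimmer one (-1.77, adjusted p = 0.0413). Of these, Tcea3 kept its call without each of the 14 arrays.

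Lists of other cells held few or no calls. None of 6 measured germ cell genes, 5 meiosis genes, 15 endothelial genes, 17 neuron and glia genes, 31 respiratory chain genes or 30 ribosomal protein genes passed by limma at an adjusted p under 0.05. The germ cell list had 25 symbols and the meiosis list 20, so most of their members were not measured. Among those missing were Ddx4, Dazl, Stra8 and Rec8, and sex differences of such genes could not be read here. Kit, a receptor of germ cells, read 62.4 and 36.2 in testis, against 31.6 and 46.5 in ovary, and Sycp3, of the synaptonemal complex, read 98.1 and 130.3 in testis, against 153 and 188 in ovary (-0.52, adjusted p = 0.446). Of 16 mesonephros and kidney genes only Podxl passed, 11 stayed under 50 units in every E16 array, and Pax8 read 22.3 and 14.3 in testis, against 18.8 and 3.6 in ovary. Of 12 red blood cell genes only Tfrc, the transferrin receptor, passed, with 542 and 521 in testis, against 999 and 1184 in ovary (log2 difference -1.01 ± 0.19 SE, adjusted p = 0.0229), while Hbb, a globin, read 4396 and 7053 in testis, against 5526 and 3943 in ovary and did not. The second probe set of Tfrc gave 0.11, and its call was lost without any 1 of the 4 E16 arrays.

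Blood and vessel genes differed between the 2 ovary arrays. The median of replicate 1 minus replicate 2 was 0.72 over 15 endothelial genes and 0.56 over 12 red blood cell genes in ovary, and 0.14 and 0.08 over the same genes in testis. Pecam1, an endothelial adhesion molecule, read 67.4 and 56.5 in testis, against 68 and 35.1 in ovary. The part of this difference in the sex comparison was not tested.

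**Figure D3:**
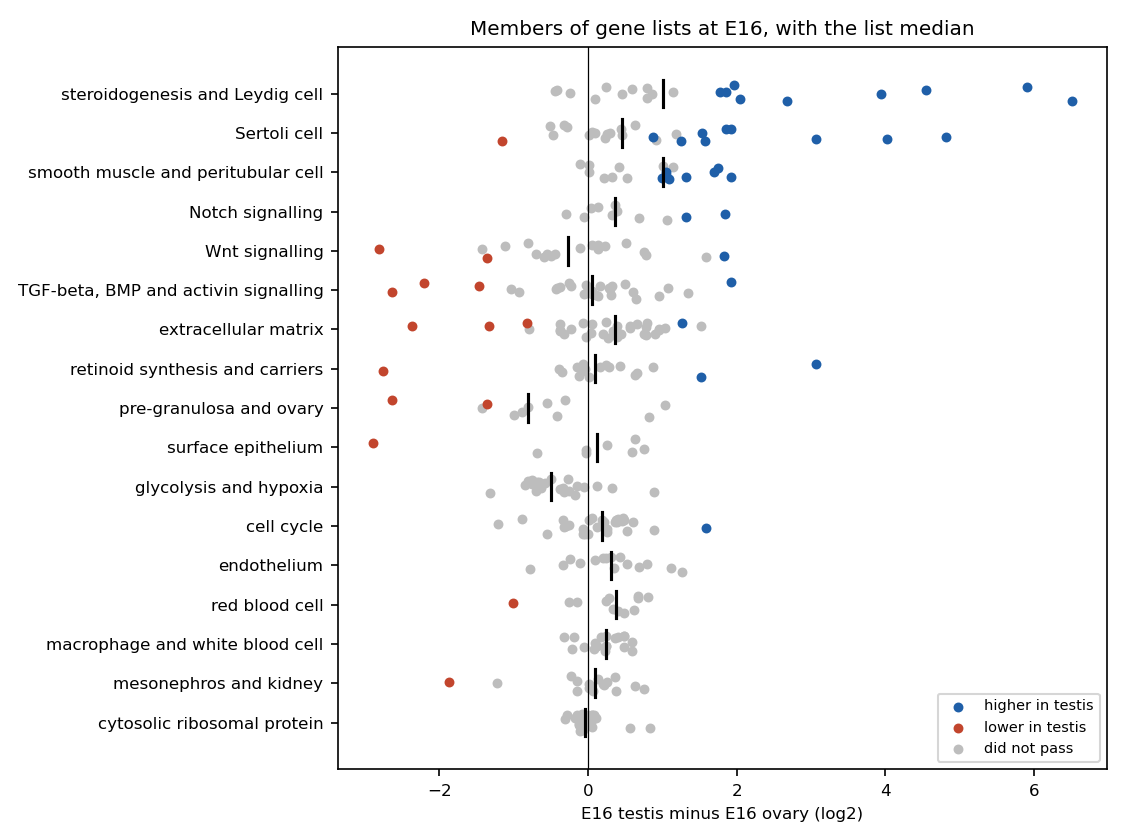
Sex difference at E16 (testis minus ovary, log2) of each measured member of 17 gene lists, 1 point per gene by its brightest probe set, coloured where the gene passed; vertical bars are list medians. Steroidogenesis and Leydig cell (median 1.00), Sertoli cell (0.46) and smooth muscle (1.01) hold 9, 9 and 8 genes higher in testis, while the pre-granulosa and ovary list (median -0.80) holds 2 lower.

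Calls were spread over the chromosomes. Of 294 named X-linked genes, 4 were higher and 3 lower (2.38% called), against 0.55% on chromosome 10 and 3.25% on chromosome 17, the extremes among chromosomes with calls. Sry, the switch for the testis on the Y chromosome, read 28.2 and 18.5 in testis, against 14.9 and 25.8 in ovary and did not differ beyond its error (log2 difference 0.12 ± 0.24 SE, adjusted p = 0.895).

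The same sex differences were set against those at E13 and E14, which came from other arrays. Of the probe sets higher in testis at E16, 10 also passed at E14 and 0 at E13; of those lower, 11 passed at E14 and 0 at E13. At E14 0.139% of all probe sets passed (0.0693% in each direction), and at E13 0.0126% (0.0063% in each). The median difference of the 161 was 0.21, 0.46 and 1.31 at E13, E14 and E16, and that of the 115 was -0.22, -0.76 and -1.36. Since these probe sets were chosen by their value at E16, the E16 medians describe the choice. The direction at E16 was shared at E14 by 137 of the 161 and 110 of the 115, against 65.4% of all probe sets, and at E13 by 114 and 81, against 62.7%. Within each sex, replicate 1 of E14 and E16 came from the same chip batch.

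Some of the genes had already passed at E14. Amh averaged 71.7 ± 11 at E13, 618 ± 200 at E14, 953 ± 197 at E16 in testis (mean ± SD, n = 2), and 31.5 ± 9.9 at E13, 21.4 ± 1.06 at E14, 19.4 ± 13.9 at E16 in ovary, and its sex difference had passed at E14 (4.05, adjusted p = 0.000422). The differences of Tsx (2.89), Aldh1a1 (2.26), Cst8 (2.08), Mgst2 (1.88), Pln (1.80), Aard (1.71), Tcf21 (1.69) and Csrp2 (1.65) had passed at E14 as well. Tcf21 averaged 581 ± 103 at E13, 691 ± 189 at E14, 651 ± 102 at E16 in testis, and 396 ± 101 at E13, 201 ± 33.8 at E14, 121 ± 25.2 at E16 in ovary, so that its level in testis stayed within the spread while its mean in ovary was lower at each later age. Among genes lower in testis, Cyp1b1 (-2.04), Apoc4 (-2.01), Cd74 (-1.98), Eci2 (-1.87), Postn (-1.74) and Amhr2 (-1.64) had passed at E14.

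Of the 9 steroid and Leydig cell genes higher at E16, 4 had a probe set whose sex difference was larger than at E14. The sex difference at E16 exceeded that at E14 in 7 probe sets (0.0441%; 651 at an unadjusted p under 0.05), and all 7 changed towards testis. They were Cpa1 (6.24 ± 0.55 SE, adjusted p = 0.00141), Cyp17a1 (6.54 ± 0.69 SE, adjusted p = 0.00529), Hsd3b1 (4.90 ± 0.59 SE, adjusted p = 0.0116), Cyp11a1 (3.74 ± 0.31 SE, adjusted p = 0.00141), the dimmer probe set of Star (4.23 ± 0.45 SE, adjusted p = 0.00529), Nppc (2.42 ± 0.28 SE, adjusted p = 0.00966) and Susd3 (1.87 ± 0.25 SE, adjusted p = 0.0229). Cyp11a1 averaged 40.3 ± 1.13 at E13, 42.4 ± 3.68 at E14, 833 ± 308 at E16 in testis, and 40 ± 0.778 at E13, 35 ± 2.05 at E14, 37.5 ± 0.707 at E16 in ovary. Hsd3b1 averaged 34.5 ± 2.19 at E13, 57.4 ± 54 at E14, 1817 ± 545 at E16 in testis, and 5.3 ± 4.1 at E13, 4.65 ± 2.05 at E14, 3.75 ± 1.63 at E16 in ovary. Susd3 had the same direction of change with a different course, at 79.3 ± 1.56 at E13, 54.6 ± 8.06 at E14, 136 ± 20.5 at E16 in testis, and 101 ± 5.94 at E13, 79.1 ± 4.95 at E14, 40.3 ± 7.85 at E16 in ovary.

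Insl3 had a change of like size that did not pass (4.86 ± 0.80 SE, adjusted p = 0.14). The brightest probe sets of Star (2.86 ± 0.50 SE, adjusted p = 0.158), Fdx1 (1.81 ± 0.32 SE, adjusted p = 0.158), Scarb1, Lhcgr and Hsd17b3 did not pass either. The count was 11 without E16 testis replicate 1, 4 without testis replicate 2, 4 without E14 ovary replicate 2 and 4 without E16 ovary replicate 2. It was 0 by limma when the 4 arrays with discordant Xist were left out, with 810 probe sets at an unadjusted p under 0.05.

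Against E13, the sex difference at E16 had changed in 23 probe sets (0.145%; 1030 at an unadjusted p under 0.05), 15 towards testis (0.0945%) and 8 towards ovary (0.0504%). Of the 23, 22 also passed at E16, the exception being Sry (-2.12 ± 0.33 SE, adjusted p = 0.0488), whose sex difference passed at E13 (2.24, adjusted p = 0.0159) and not at E14 (0.74, adjusted p = 0.427). Mt2A averaged 534 ± 45.5 at E13, 337 ± 0.566 at E14, 169 ± 53.2 at E16 in testis, and 592 ± 44 at E13, 825 ± 9.05 at E14, 1430 ± 54.1 at E16 in ovary, and its sex difference had changed by -2.85 ± 0.34 SE, adjusted p = 0.00905. Rbp4 (-3.12 ± 0.51 SE, adjusted p = 0.0496) averaged 2.05 ± 0.919 at E13, 10.1 ± 0.636 at E14, 129 ± 83.4 at E16 in ovary, while its mean in testis was at most 11.2 at any age. Krt19 moved alike in the means, 352 ± 38.9 at E13, 247 ± 83.7 at E14, 166 ± 27.5 at E16 in testis, and 324 ± 49.1 at E13, 580 ± 103 at E14, 1354 ± 410 at E16 in ovary, but narrowly missed the threshold (-3.01 ± 0.50 SE, adjusted p = 0.0532).

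Among other genes, Amhr2 (-1.87), Postn (-2.19), Fbp2 (-2.14) and Slc4a4 (-1.52) also changed towards ovary, and Amh (3.92), Jag1 (2.39), Rnf207 (2.02), Enc1 (1.93) and Tsx (3.00) towards testis. Cxcr4, of which a dimmer probe set passed, is not counted by its brightest (-1.15). Single arrays moved the count of 23 to between 2 and 20; it was 2 without replicate 2 of E13 testis or of E13 ovary, 5 without E16 testis replicate 2 or E13 ovary replicate 1, 7 without E16 ovary replicate 2, 10 without E13 testis replicate 1 and 12 without E16 ovary replicate 1. It was 0 by limma when those 4 arrays were left out, with 1118 probe sets at an unadjusted p under 0.05.

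**Figure D4:**
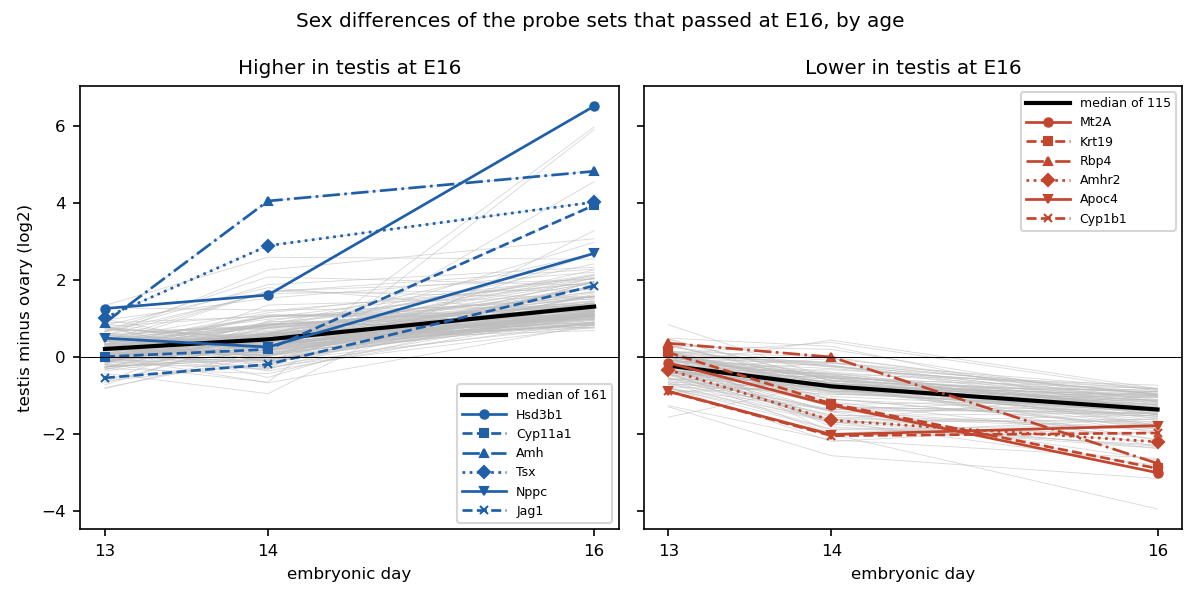
Difference between testis and ovary (log2, vertical axis) by embryonic day for each probe set that passed at E16 (grey lines), with the median (black) and 6 named genes in each direction. The median of the 161 higher probe sets runs 0.21, 0.46 and 1.31 and that of the 115 lower -0.22, -0.76 and -1.36; Amh and Tsx are already high at E14, while Hsd3b1 and Cyp11a1 reach their E16 values after E14.

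Each sex difference could also be read from 1 testis and 1 ovary array. Between the replicate 2 arrays, which shared a chip batch, the median difference was 1.36 over the 161 probe sets and -1.43 over the 115; between the replicate 1 arrays, of different batches, it was 1.28 and -1.27. All 276 had the same direction in both pairs, which the absence of overlap requires. Within the shared batch 123 of the 161 and 94 of the 115 differed by at least 1 on the log2 scale. Since the 276 were chosen by their difference on these same arrays, the medians and counts of both pairs describe the choice. Cyp17a1 differed by 7.07 between the replicate 2 arrays and by 4.73 between the replicate 1 arrays, and Insl3 by 5.92 and 3.18. Mt2A differed by -2.66 and -3.34, and Nppc by 2.71 and 2.66.

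**Figure D5:**
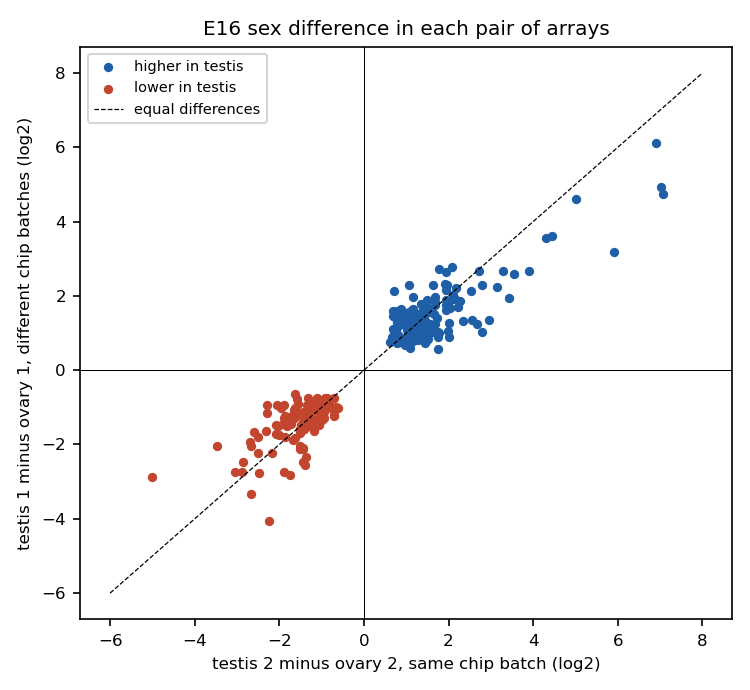
Sex difference (log2) between the replicate 1 arrays, of different chip batches (vertical axis), against that between the replicate 2 arrays, of 1 chip batch (horizontal axis), for the 276 probe sets that passed. All points lie at the lower left or the upper right, and several of the largest rises, among them Cyp17a1 and Insl3, are larger between the replicate 2 arrays.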

How the data were processed

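RNA of 14 pools, 2 per group, was measured on Affymetrix rat arrays and grouped by title. The deposited values are intensities on a linear scale, made by the authors with software not given in the sources used here; their trimmed mean of 125 in every array shows a common scaling. After leaving out 57 controls, 15866 probe sets were analysed as log2(intensity + 16), which understates changes of dim genes. The test was limma's (version 3.58.1, R 4.3.3; lmFit and eBayes) in a model of 7 groups over all arrays (7 residual and 4.16 prior degrees of freedom), with Benjamini-Hochberg adjustment over all probe sets. The number of arrays limits precision.

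Names came from the platform annotation (12783 probe sets with 1 symbol, 312 with several, 2771 with none), of which 12748 identifiers were found in RefSeq (GRCr8). Genes named are the 30 largest differences in each direction among probe sets that passed without overlap, list members that passed, the first 4 of each list and the largest changes between ages, less some that are left out; each is given by its brightest probe set. Members, lists and motifs were chosen with earlier results of these data known. On simulated data for the E16 comparison over 15866 probe sets, the fit recovered 40% of log2 changes of 1 and 96% of 2, with 15 false calls. The simulated arrays varied independently and had no chip batches, unlike the real ones. These figures therefore do not measure the recovery or false calls of the real comparison. Alternatives covered offset, scaling, a filter, chip batch and period, replicate number and single arrays.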

Additional observations from a re-analysis of the deposited data

Results flagged for a closer look

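The sex difference of these genes differed between E16 and an earlier age by limma's test of the difference itself (Benjamini-Hochberg over all probe sets). Against E14 the difference had grown towards testis for Cyp17a1 (6.54), Cpa1 (6.24), Hsd3b1 (4.90), Cyp11a1 (3.74), Nppc (2.42) and Susd3 (1.87). Against E13 it had grown towards testis for Cyp17a1 (6.09), Cpa1 (5.91), Hsd3b1 (5.25), Cyp11a1 (3.93), Amh (3.92), Star (3.30), Tsx (3.00), Jag1 (2.39), Nppc (2.20), Rnf207 (2.02), Enc1 (1.93) and Susd3 (1.73). Against E13 it had changed towards ovary for Rbp4 (-3.12), Mt2A (-2.85), Postn (-2.19), Fbp2 (-2.14), Sry (-2.12), Amhr2 (-1.87) and Slc4a4 (-1.52). The adjusted p of these changes ran between 0.00105 and 0.0496. With 2 arrays per group no group was large enough for a check of single arrays against their group.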

How the results depend on the processing

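The 276 probe sets that passed at E16 became 167 with an offset of 1, 11 with only the 4 E16 arrays and 594 when chip batch entered as a random block. With single arrays left out they ranged from 62 to 307, and 14 were left without the 4 arrays with discordant Xist, where groups keep 1 array that is assumed to vary like the others. An offset of 64, quantile normalization, a filter on dim probe sets, no cultured arrays and chip period as a block kept the count within 1.5 times, though quantile normalization moved the split to 143 higher and 138 lower. The 7 changes since E14 became 2 with an offset of 1 and 26 with the random block, ranged from 4 to 11 with single arrays left out, and were 0 without the 4 arrays. The 23 since E13 became 8 with an offset of 1, 46 with chip period as a block and 45 with the random block, ranged from 2 to 20 with single arrays left out, and were 0 without the 4 arrays. The cause of these shifts was not tested.

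A replicate block gave 398, 8 and 28 probe sets for these 3 tests and changed no call among the 90 genes. The numbers do not pair samples by the labels; same-numbered E16 arrays deviated together at r = 0.216, and over 21 pairs of groups the correlation ran from -0.053 to 0.53.

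Of the 90 genes, 58 kept their call with an offset of 1, 85 with quantile normalization, 80 with chip period as a block and 11 with the 4 E16 arrays. Their direction turned only in another, dim or differing probe set: -0.42 for Enc1, 0.04 for Stard10, 0.06 and 0.17 for Podxl, 0.01 for Apoe, 0.11 for Tfrc, -0.13 for Rnf207 and 0.11 for Slc4a4. Genes that did not pass turned as follows. With single arrays left out, Col1a1 ranged from -0.10 to 2.0, Cyp11b1 from -0.08 to 0.42, Pax8 from -0.03 to 0.80, Pecam1 from -0.11 to 0.61, Kit from -0.06 to 0.52, Sry from -0.10 to 0.34, Cyp21a1 from -0.00 to 0.14 and Hbb from -0.09 to 0.59, and the 4 left-out arrays gave the first 4 of these their lowest value. With chip period as a block, Hbb gave -0.28, Kit -0.03 and Sry -0.11, and with quantile normalization Sry and Cyp21a1 gave -0.04. Signals near background limit what dim genes can show.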
